A study of Mus musculus with 32 samples.

Results

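The uterus at embryonic day (E) 8.5 was compared with the uterus at E10.5, all genes above background being tested. The 9 samples with these time points in their labels, 4 at E8.5 and 5 at E10.5, were taken from the 32 arrays of a series on the mouse uterus through gestation. Each sample is RNA of 1 mouse, pooled from its tissue samples of good integrity, on an Illumina MouseRef-8 v2 beadchip, a 1-colour array that reads 1 summarised intensity per probe. Both groups were FVB/N mice with no transgene or treatment in the labels, and the morning of the vaginal plug counts as E0.5. The ages of single mice are not given in the labels. At each implantation site the wall of the uterus was kept after embryo and placenta had been taken out and the decidua scraped off, so what remains of these tissues depends on the dissection. Of 13439 genes tested, 11714 were above background (detection p-value below 0.05) on at least 1 of the 9 arrays. All levels below are the deposited log2 values, and a change is the E10.5 mean minus the E8.5 mean on this scale with its standard error (SE). The SE comes from 1 fit over all 32 arrays of the series, so it does not measure the spread of the 9 mice alone.

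Between these days the mouse implantation site passes from a dominant decidua, the transformed stroma around the embryo, to a working placenta. The luminal epithelium, which is lost around the embryo after attachment, later lines a lumen again, while uterine natural killer cells gather in the decidua. Uterine epithelium is known to secrete proteases, ions and water into the lumen, and the stroma beneath it signals to it through Wnt, bone morphogenetic protein (BMP) and growth factor ligands.

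Markers of the wall itself were present: 19 of 19 measured smooth muscle genes were detected on at least 1 of the 9 arrays and 16 on all 9. The progesterone receptor gene Pgr lay between 6.82 and 7.53 and the oestrogen receptor gene Esr1 between 8.43 and 9.87, with overlapping groups. Between 13399 and 14351 probes were detected per array, and the lowest correlation between any 2 of the 9 arrays was 0.94, that of E8.5 replicate 3 with E10.5 replicate 4. Both of these arrays stood apart in markers of other cell types. The mean of the 25 measured epithelial genes was 5.34 in E8.5 replicate 3, against 6.63 to 7.22 in the other 3 E8.5 mice and 7.25 to 7.96 at E10.5. This array held the lowest of the 9 values for 21 of the 25 epithelial genes, and 10 of them were detected there against 19 to 22 in the other E8.5 mice. Its mean over 11 genes of uterine gland products was 5.07, against 8.03 to 8.35 in the other E8.5 mice and 7.32 to 8.01 at E10.5. In E10.5 replicate 4 the mean of 18 placental genes was 8.56 while the other 8 arrays lay between 4.66 and 5.15. There 16 of the 18 placental genes were at their highest of the 9 arrays and 16 were detected, against 1 to 7 elsewhere. The same array was the highest in the means of the decidua list (9.09) and the red cell list (9.24). In whole tissue, fewer cells of a type and less RNA per cell cannot be told apart. Counts are therefore given with all 9 mice, without E8.5 replicate 3, and without both of these arrays. For single genes the fits without them are given for many, but not all, of the calls that were lost.

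**Figure D1:**
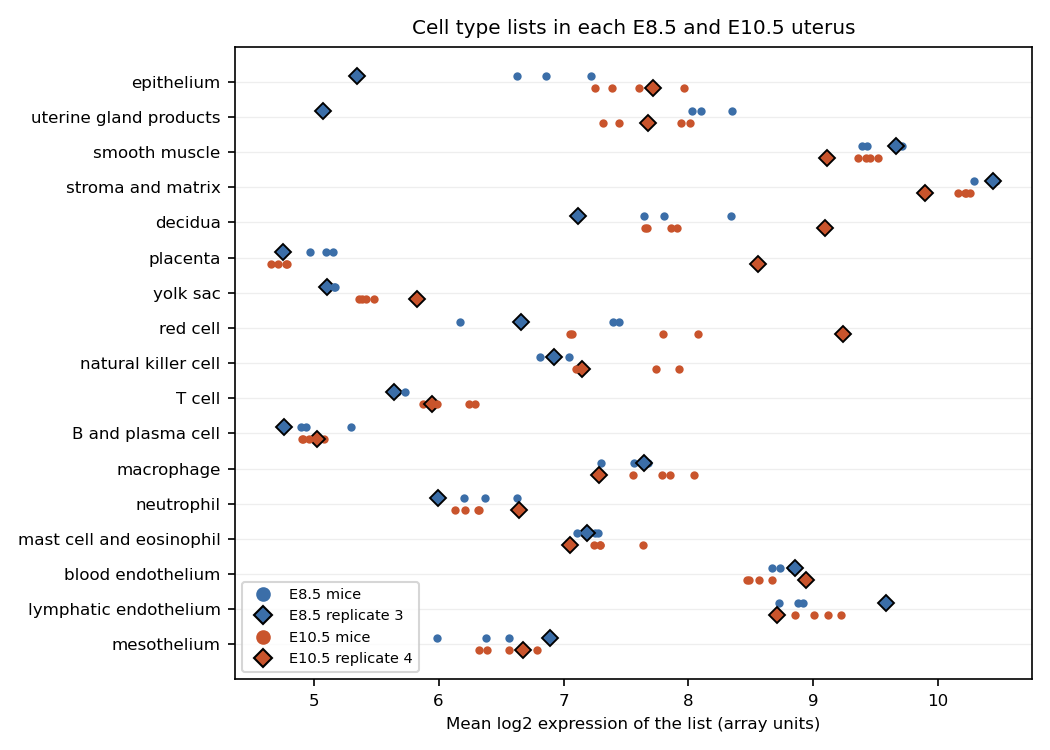
Mean log2 expression of the measured members of each cell type list (x axis, array units) in each of the 4 E8.5 mice (blue) and 5 E10.5 mice (orange), with E8.5 replicate 3 and E10.5 replicate 4 drawn as outlined diamonds. E8.5 replicate 3 lies at 5.34 for epithelium and 5.07 for gland products, and E10.5 replicate 4 at 8.56 for placenta.

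From E8.5 to E10.5, 303 genes were higher (2.25% of those tested) and 319 were lower (2.37%) at an adjusted p of at most 0.05 (limma, Benjamini-Hochberg over 13439 genes). The increases were larger than the decreases. The median change was 1.16 among the higher genes and -0.70 among the lower ones, while the median of all genes was -0.02. In all, 52 genes gained at least 2 log2 units and 2 lost as much. For 250 of the higher genes every E10.5 mouse lay above every E8.5 mouse, an order held by 3.83% of all genes, and for 266 of the lower genes every E10.5 mouse lay below every E8.5 mouse, as in 6.13% of all genes. Under cyclic loess normalisation 63.2 percent of the called genes were higher, against 48.7 percent here.

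Without E8.5 replicate 3 the calls fell to 140 higher genes (1.04%) and 136 lower genes (1.01%). Of the 303 higher genes 138 were still called, and of the 319 lower genes 121, and in all 622 the direction of the difference between the means was kept. E8.5 replicate 3 had the lowest of the 4 E8.5 values for 198 of the 303 higher genes and the highest of the 4 for 152 of the 319 lower genes. With it the estimated fold was more than 1.5 times larger for 35 higher genes and for 0 lower genes. Without both E8.5 replicate 3 and E10.5 replicate 4, 100 genes were higher (0.744%) and 71 lower (0.528%). These 2 mice were not the only ones on which the counts turned: without E8.5 replicate 4 there were 199 higher and 148 lower genes, without E10.5 replicate 2 there were 162 lower and without E10.5 replicate 4 there were 163 lower. A smaller group also has less power, and the part of each mouse in the counts was not tested beyond these fits.

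**Figure D2:**
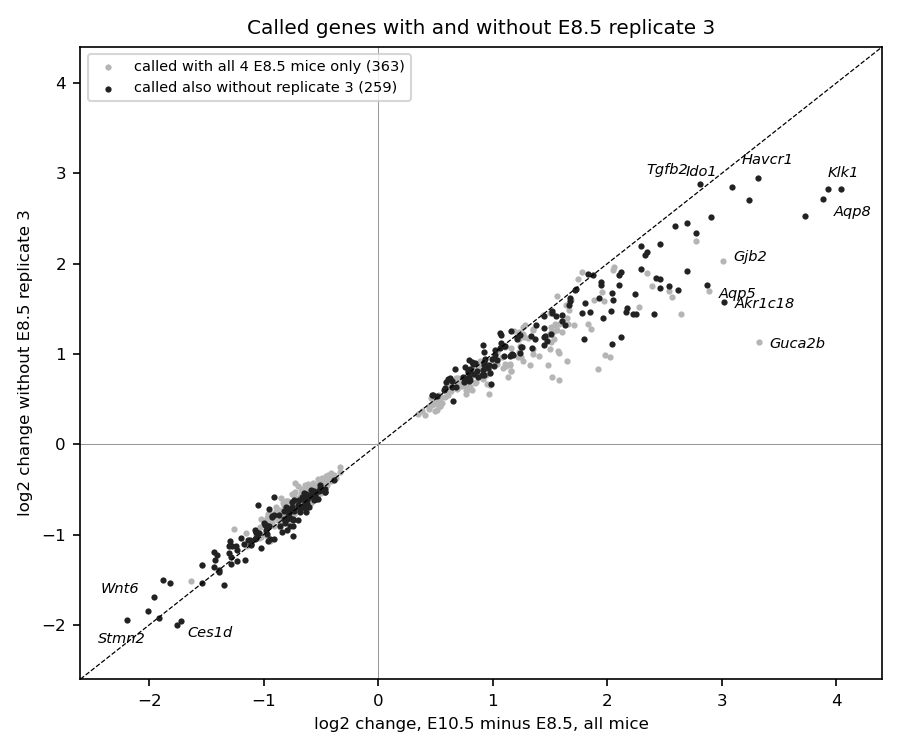
Each point is 1 of the 622 called genes, with the log2 change of E10.5 minus E8.5 over all 9 mice on the x axis and the same without E8.5 replicate 3 on the y axis, beside a dashed line of equality. Black points (259) were called in both fits and grey points (363) only with all mice, and Guca2b lies farthest below the line at 3.32 against 1.14.

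The largest increases were in glandular kallikreins, a cluster of closely related serine proteases on mouse chromosome 7 to which tissue kallikrein, the enzyme that releases kinins, belongs. Of 12 measured members 5 rose, namely Klk1, Klk1b5, Klk1b27, Klk1b8 and Klk1b24, and none fell. The 5 were 41.7 percent of the 12, against 2.25 percent of all genes, and the median change of the 12 was 0.70. Without E8.5 replicate 3 the count was 4, and it stayed at 4 without E10.5 replicate 4 as well. Promoters of 7 measured members are shown because genes that rose and genes at or near background carry nearly the same sequence near the start site. The sequences are from RefSeq (GRCm38.p6, plus strand, 5′ to 3′), 80 bases around the letters TTTAAA in capitals. The upper 4 genes rose. Of the lower 3, Klk1b21 was detected on 2 of the 9 arrays and Klk1b1 and Klk1b22 on none.
Klk1b27, chr7:44052213-44052292: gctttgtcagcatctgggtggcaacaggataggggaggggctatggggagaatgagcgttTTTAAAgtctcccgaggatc
Klk1b5, chr7:44216372-44216451: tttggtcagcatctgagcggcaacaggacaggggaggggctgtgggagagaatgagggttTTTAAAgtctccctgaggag
Klk1b8, chr7:43950562-43950641: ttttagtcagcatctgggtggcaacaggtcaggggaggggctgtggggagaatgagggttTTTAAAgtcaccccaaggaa
Klk1b24, chr7:44188145-44188224: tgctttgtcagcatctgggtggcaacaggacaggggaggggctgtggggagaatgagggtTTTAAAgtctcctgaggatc
Klk1b21, chr7:44102236-44102315: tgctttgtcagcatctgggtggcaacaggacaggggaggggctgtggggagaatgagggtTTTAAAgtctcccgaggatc
Klk1b1, chr7:43966658-43966737: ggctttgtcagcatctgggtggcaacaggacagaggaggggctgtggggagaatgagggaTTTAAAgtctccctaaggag
Klk1b22, chr7:44112573-44112652: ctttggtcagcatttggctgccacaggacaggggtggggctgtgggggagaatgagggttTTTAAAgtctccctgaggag

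The letters TTTAAA, which read the same on both strands, occur in the promoter window (250 bases before to 50 after the annotated start) of 11 of the 12 measured kallikreins and in 13.2% of 32851 promoter windows in the table. Over the 55 pairs of these 11 stretches the aligned identity ran from 82.5 to 98.8 percent of 80 bases. The highest value belonged to Klk1b24, which rose, and Klk1b21, which did not pass the test (change 0.64, adjusted p = 0.497). The letters begin 17 to 44 bases before the annotated start in 10 of the 11, and in Klk1b21 they begin 4 bases after it, so that this stretch does not have the same place relative to the annotated start as that of Klk1b24. The window of Klk1 does not hold the letters. Because the coding parts of these genes are also near copies of each other, a probe named for one may read others, and the kallikreins may not be 5 separate results.

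Klk1 was at 10.05, 10.96, 4.98 and 8.48 in E8.5 replicates 1 to 4 and at 12.32, 12.90, 13.68, 11.85 and 12.52 in E10.5 replicates 1 to 5. Every E10.5 mouse was above every E8.5 mouse, and E8.5 replicate 3 was at background. The change was 4.04 ± 0.69 (SE), or 16.4-fold, with an adjusted p of 0.000615 by limma, and it was 2.83 with an adjusted p of 0.00189 without that mouse. Klk1b5 lay at 8.77, 9.91, 4.47 and 7.96 at E8.5 and at 11.39, 11.78, 12.72, 10.74 and 11.88 at E10.5, a change of 3.92 ± 0.66 (adjusted p = 0.000516). Klk1b27 ranked the mice of each group in the same order as Klk1b5, with a change of 3.73 ± 0.72. The other probe of Klk1b27, detected on 7 of the 9 arrays, was not called (1.35, adjusted p = 0.165). That of Klk1b5 was called (2.27, adjusted p = 0.00107). Klk1b8 and Klk1b24 were near background at E8.5, at 4.46 to 5.15 and 4.41 to 5.43, and reached 5.43 to 7.53 and 5.91 to 7.67 at E10.5.

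The 12 largest increases among genes with separate groups held 3 of these kallikreins and, beside them, water channels, enzymes and surface proteins. E8.5 replicate 3 had the lowest of the 9 values in all 12, and 9 of the 12 were still called without it. Aqp8, a water channel, lay at 9.30, 10.23, 4.60 and 8.34 at E8.5 and at 11.61, 12.03, 12.34, 11.62 and 12.41 at E10.5. Its change was 3.88 ± 0.57 (14.8-fold, adjusted p = 9.43e-05), and 2.71 without replicate 3 (adjusted p = 1.12e-06). Guca2b, which encodes the peptide uroguanylin, was at 13.38, 13.59, 4.29 and 12.16 at E8.5 and between 14.02 and 14.38 at E10.5. The size of the change rested on 1 mouse. It was 3.32 ± 0.98 (adjusted p = 0.0466) with it and 1.14 without it, no longer past the threshold (adjusted p = 0.0516).

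Other increases depended less on that mouse. Havcr1, a cell surface receptor for phosphatidylserine, was at 6.08, 6.23, 4.59 and 5.88 at E8.5 and at 8.67, 9.19, 9.16, 8.69 and 9.35 at E10.5. The gap between the groups was wider than the spread within either, with a change of 3.32 ± 0.24 (9.96-fold, adjusted p = 3.44e-10) and of 2.95 without replicate 3. Ido1, the first enzyme of tryptophan breakdown along the kynurenine path, was at 6.26, 5.77, 5.12 and 6.13 at E8.5 and at 9.59, 9.66, 8.39, 8.67 and 8.24 at E10.5. It gained 3.09 ± 0.43 (adjusted p = 5.99e-05), and 2.85 without replicate 3. Tgfb2, a ligand of the TGF-beta family, was at 8.93, 8.70, 8.62 and 7.41 at E8.5 and at 10.74, 11.78, 11.77, 10.87 and 10.97 at E10.5. Replicate 4 was the lowest E8.5 mouse here, and the change was 2.81 ± 0.35 (adjusted p = 1.06e-05) with replicate 3 and 2.88 without it. Cuzd1, a secreted protein with CUB and zona pellucida domains, gained 3.24 ± 0.37 and Ly6f, a surface protein of the Ly6 family, gained 2.90 ± 0.29, both with separate groups and still called without replicate 3.

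**Figure D3:**
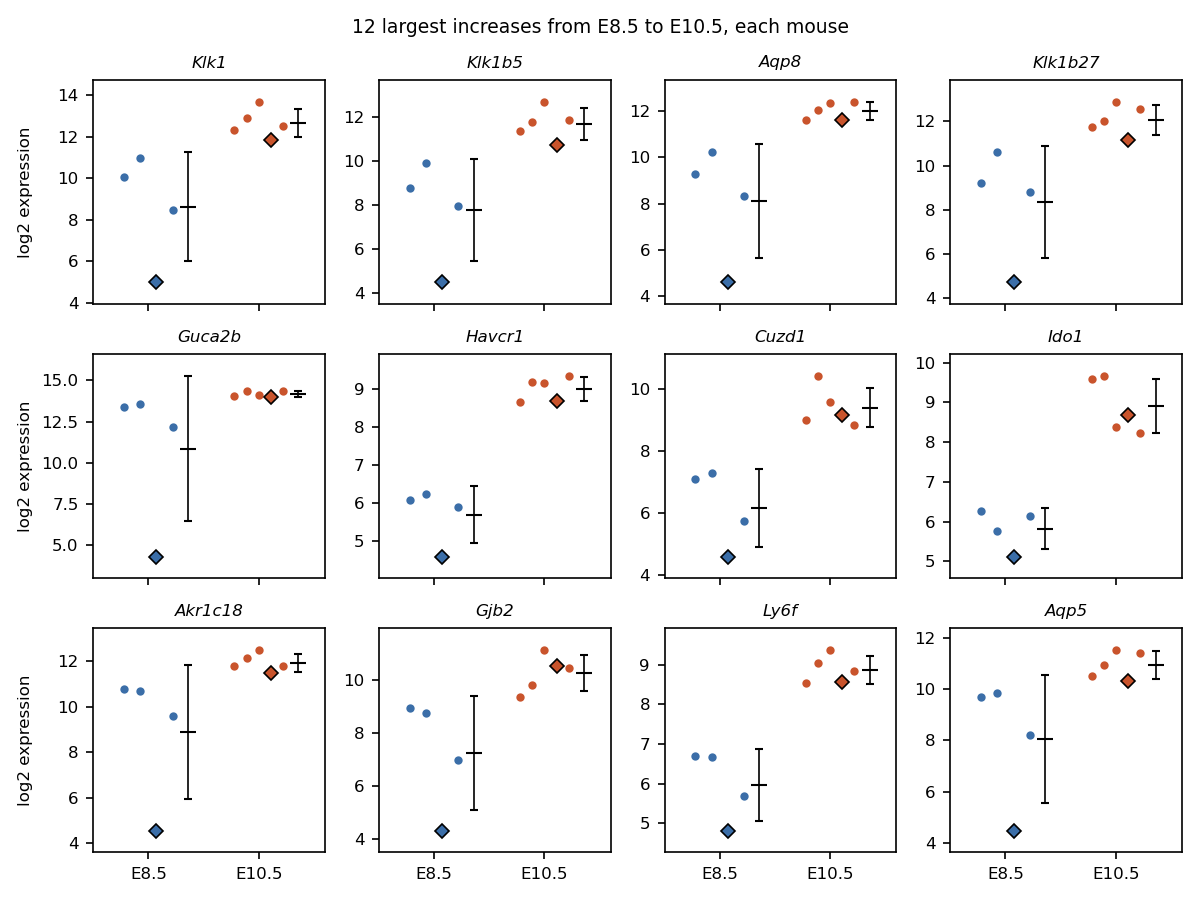
Log2 expression (y axis) of the 12 genes with the largest increase in each E8.5 mouse (blue) and E10.5 mouse (orange), with mean and SD beside the points and with E8.5 replicate 3 and E10.5 replicate 4 as outlined diamonds. In every panel all E10.5 mice lie above all E8.5 mice and E8.5 replicate 3 is the lowest, at 4.29 in Guca2b and 4.59 in Havcr1.

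Many genes of epithelial structure rose. Of 25 measured epithelial genes 12 were higher (48 percent, against 2.25 percent of all genes) and none was lower, with a median change of 1.23. They included Krt8 and Krt18, 2 keratins of simple epithelium, the adhesion molecule E-cadherin (Cdh1), the tight junction protein Cldn3 and the desmosome protein Pkp3. The splicing regulator Esrp1, the vesicle protein Rab25 and the transcription factor Grhl2 were also among them. The simple keratins Krt19 (1.28, adjusted p = 0.0853) and Krt7 (1.46, adjusted p = 0.103) did not pass. In E8.5 replicate 3 these genes were low, as given above, and its part in the group change was not tested beyond leaving it out. Without it 5 of the 25 were higher and 1, the cadherin gene Cdh16, was lower (-1.65, adjusted p = 0.024, against -0.75 and 0.501 with all mice), with a median of 0.87. The 5 that stayed higher were Pkp3, Krt18, Ap1m2, Krt8 and Spint1. Without E10.5 replicate 4 as well, 0 of 25 passed in either direction while the median was 0.88.

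Krt18 lay at 7.60, 8.33, 4.99 and 7.44 at E8.5 and at 8.43, 8.74, 9.61, 10.59 and 8.88 at E10.5. The highest mouse was E10.5 replicate 4, the one with placental markers, and the change was 2.16 ± 0.44 (adjusted p = 0.00349), 1.46 without E8.5 replicate 3 (adjusted p = 0.0262) and 1.12 without both (adjusted p = 0.0694). Pkp3 was at 6.09, 6.08, 5.32 and 5.94 at E8.5 and at 6.78, 7.06, 6.97, 7.46 and 6.77 at E10.5, so that the groups were apart also without replicate 3. Its change was 1.15 ± 0.21 (adjusted p = 0.00153) and 0.97 without that mouse (adjusted p = 0.0158), and it just missed the threshold without both arrays (0.86, adjusted p = 0.0509). Cdh1 was at 8.48, 8.60, 6.45 and 7.66 at E8.5 and at 8.94, 9.18, 9.80, 8.80 and 8.88 at E10.5. Its change of 1.32 ± 0.33 (adjusted p = 0.019) became 0.87 without replicate 3 and was then not past the threshold (adjusted p = 0.129). Elf3, an epithelial transcription factor, did not pass the test with all mice (1.79 ± 0.60, adjusted p = 0.0827), and its groups overlapped at 7.47 in E8.5 replicate 2 against 7.45 in E10.5 replicate 2. Cldn10, another tight junction gene with 3 detected probes that were all called, gained 2.04 ± 0.48 and was still called without replicate 3 at 1.11 (adjusted p = 0.0384).

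Proteases that sit on the epithelial surface and their inhibitors rose in part. In a list drawn up after the values were seen, and so counted with no test, 9 of 28 measured genes were higher and 1 was lower, 4 and 1 without E8.5 replicate 3, and 3 and 1 without both arrays. With all mice these were 32.1 and 3.57 percent of the list, against 2.25 and 2.37 percent of all genes. Prss8, the membrane protease prostasin that cleaves epithelial sodium channels, was at 8.14, 8.40, 5.46 and 6.86 at E8.5 and at 9.23, 9.55, 10.04, 9.99 and 9.37 at E10.5. All E10.5 mice were higher, by 2.42 ± 0.36 (adjusted p = 0.000125), and by 1.84 without replicate 3 (adjusted p = 0.000557). Tmprss13 gained 2.30 ± 0.32 and Serpinb6c, a serpin, 2.70 ± 0.44, both still called without that mouse. St14, the protease matriptase, gained 1.51 ± 0.37, and its inhibitors Spint1 and Spint2 gained 0.97 ± 0.21 and 1.11 ± 0.25. The other probe of Spint2 was not called (0.73, adjusted p = 0.0965). Without replicate 3 St14 and Spint2 were not past the threshold (adjusted p = 0.112 and 0.0625), whereas Spint1 was (adjusted p = 0.036), though not without both arrays (adjusted p = 0.0665). Spink8, a Kazal type inhibitor, was the exception: it was detected in 3 of 4 E8.5 mice and in none at E10.5, where it was at least 1.3-fold lower (adjusted p = 0.00138).

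Channels and carriers of the epithelium also changed. Of 32 measured genes for ion and water transport 5 were higher (15.6 percent, against 2.25 percent of all genes) and none was lower. The median change was 0.15, and 2 were higher without E8.5 replicate 3 and 1, Aqp8, without both arrays. The 5 were the water channels Aqp8 and Aqp5, the sodium channel subunit Scnn1b, the potassium channel Kcnk1 and the anion exchanger Slc26a4. Scnn1b was at 7.90, 8.13, 4.60 and 7.53 at E8.5 and at 8.84, 9.40, 9.12, 10.00 and 9.12 at E10.5. Without the lowest mouse, replicate 3, the groups were still apart, and its change went from 2.25 ± 0.48 (adjusted p = 0.00523) to 1.44 (adjusted p = 0.0343), and to 1.27 without both arrays, where it was not past the threshold (adjusted p = 0.0952). The partner subunit Scnn1a had a change of -0.08 (adjusted p = 0.924). In neither group was its probe detected on every array, and a change near background is compressed. Aqp5 was not past the threshold without replicate 3 (change 1.69, adjusted p = 0.195), with the other E8.5 mice at 9.71, 9.84 and 8.21 and the E10.5 mice at 10.32 to 11.52.

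Among all 275 genes whose symbols begin with Slc, the solute carriers, 19 were higher and 5 lower, 6.91 and 1.82 percent, with a median of 0.06. Of all genes tested 2.25 percent were higher and 2.37 percent lower. Without E8.5 replicate 3 there were 6 and 4, and without both arrays 4 and 3. Slc13a2, a sodium-coupled carrier of citrate and other dicarboxylates, was at 5.06, 5.59, 4.73 and 5.26 at E8.5 and at 6.88, 7.41, 7.38, 7.23 and 6.62 at E10.5. No mouse of one group reached the other, and the change was 1.94 ± 0.23 (adjusted p = 7.33e-06) and 1.80 without replicate 3. The sodium phosphate carrier Slc34a2 gained 2.04 ± 0.35 and Slc27a2, which takes up and activates fatty acids, gained 2.46 ± 0.40, and both were still called without it. So were Kcne2, a potassium channel subunit (2.61 ± 0.48), and Car4, a membrane carbonic anhydrase (2.87 ± 0.58). The calcium channel Trpv6 gained 2.54 ± 0.67 and was not past the threshold without that mouse (change 1.70, adjusted p = 0.162).

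Enzymes that interconvert steroids were called in both directions. In a list drawn up after the values were seen, 6 of 24 measured genes were higher and 2 lower, and 5 and 0 both without E8.5 replicate 3 and without both arrays. With all mice these were 25 and 8.33 percent of the list, against 2.25 and 2.37 percent of all genes. Akr1c18, the 20-alpha-hydroxysteroid dehydrogenase that inactivates progesterone, was at 10.77, 10.67, 4.56 and 9.61 at E8.5 and at 11.77, 12.12, 12.48, 11.46 and 11.79 at E10.5. The change was 3.02 ± 0.71 (adjusted p = 0.0111) and shrank to 1.57 without replicate 3, still past the threshold (adjusted p = 0.0212). Hsd11b1, which regenerates active glucocorticoid, was at 11.71, 11.68, 9.22 and 11.86 at E8.5 and between 12.84 and 13.02 at E10.5, a change of 1.80 ± 0.35 and of 1.16 without that mouse. H6pd, which supplies its cofactor in the endoplasmic reticulum, gained 1.24 ± 0.20 (adjusted p = 0.000384). Hsd11b2, the enzyme of the opposite reaction, was not called (0.30 ± 0.38, adjusted p = 0.753) and its difference changed sign without replicate 3 (-0.24, adjusted p = 0.813).

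Hsd17b2, which oxidises oestradiol to oestrone, was not well above background on any E8.5 array and was detected in all 5 E10.5 mice at 5.61, 6.03, 6.26, 7.88 and 5.85. It was at least 2.46-fold higher at E10.5 (adjusted p = 0.0283), and the highest value was that of E10.5 replicate 4. Hsd17b1, which drives the reverse step, was at 6.10, 6.11, 6.68 and 7.77 at E8.5 and at 5.47, 5.81, 5.93, 5.39 and 5.76 at E10.5, with separate groups and a change of -0.99 ± 0.25 (adjusted p = 0.0203). Neither was past the threshold without E8.5 replicate 3 (adjusted p = 0.0529 and 0.0592). Ch25h, the enzyme that makes 25-hydroxycholesterol, gained 2.46 ± 0.33 and Cyp7b1, which breaks it down further, fell by 0.78 on the log2 scale (adjusted p = 0.0186). Cyp7b1 was not called without E8.5 replicate 3. In the list of 36 measured genes for progesterone and oestrogen response, 3 were higher (Akr1c18, Hsd11b1, Hsd17b2) and 3 lower (Hsd17b1 and the transcription factors Nr2f2 and Gata2), and 2 and 0 in either fit with arrays left out. With all mice each direction held 8.33 percent of the list, against 2.25 and 2.37 percent of all genes.

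Genes that handle retinoids, counted in a list also drawn up after the values were seen, were higher in 3 of 26 and lower in none, with the same count of 3 without E8.5 replicate 3 and without both arrays. The 3 were 11.5 percent of the list, against 2.25 percent of all genes. Bco1, which cleaves beta-carotene, was at 6.71, 5.36, 5.27 and 6.31 at E8.5 and at 8.01, 8.95, 7.69, 8.42 and 7.12 at E10.5. Its change was 2.12 ± 0.39 (adjusted p = 0.00136), with every E10.5 mouse above every E8.5 mouse. Lrat, which stores retinol as esters, gained 2.12 ± 0.48 and the retinol dehydrogenase Rdh12 gained 0.87 ± 0.19. The median of the 26 genes was -0.10.

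Few or no genes of each immune list were called. Of 26 measured natural killer genes 1 was higher (3.85 percent, against 2.25 percent of all genes), namely Gzmg. The median change of the list was 0.37, and 0 were higher without E8.5 replicate 3 or without both arrays. Of the 26 changes 19 were positive and 7 negative. Gzmg, a granzyme of uterine natural killer cells, was at 11.51, 10.57, 10.00 and 11.13 at E8.5 and at 13.12, 13.66, 12.52, 12.38 and 12.11 at E10.5, with separate groups and a change of 1.95 ± 0.56 (adjusted p = 0.0395). The granzyme gene Gzmf (1.70 ± 0.52, adjusted p = 0.0569), Gzme (1.53 ± 0.52, adjusted p = 0.0864) and the perforin gene Prf1 (1.48 ± 0.49, adjusted p = 0.0809) had the same order of groups and did not pass. Outside the list, the granzyme gene Gzmn and the immune gene Cd69 were also higher. Over 22 alternative fits the change of Gzmn was 1.39 to 1.89, past the threshold in 12. That of Cd69 was 1.02 to 1.87, past it in 21. Gzmn was not past it without E8.5 replicate 3, and Cd69 was not without both arrays. The granzymes are close paralogs whose probes may read each other. The list's mean was 6.81 to 7.04 at E8.5, 7.74 and 7.92 in E10.5 replicates 1 and 2, and 7.10 to 7.16 in the other 3 E10.5 mice, so the E10.5 mice themselves were uneven.

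Of 18 measured T cell genes 1 (5.56 percent, against 2.25 percent of all genes) was higher, the receptor Cd6. It was at 5.46, 6.17, 4.48 and 4.51 at E8.5 and at 6.98, 7.37, 7.26, 7.46 and 7.22 at E10.5, a change of 2.10 ± 0.30 (adjusted p = 8.52e-05) and of 1.88 without E8.5 replicate 3, and 3 of its 4 probes were called. None of the other 17 genes of the list passed, and Cd6 was called in both fits with arrays left out. Of 17 neutrophil genes 1 (5.88 percent) was higher, the decoy receptor Il1r2 (2.06 ± 0.60, adjusted p = 0.0441), and not without replicate 3 (adjusted p = 0.127). Of 34 interferon response genes 2 (5.88 percent) were higher, Isg20 and Gbp3, and Gbp3 remained past the threshold without replicate 3 (change 0.74, adjusted p = 0.0142) and without both arrays (adjusted p = 0.0219). The macrophage growth factor gene Csf1 was at 9.96, 10.35, 7.63 and 7.92 at E8.5 and at 10.44, 11.30, 11.72, 10.49 and 11.11 at E10.5. Its change was 2.05 ± 0.44 (adjusted p = 0.00515), past the threshold without replicate 3 (adjusted p = 0.0474) and not without both arrays (adjusted p = 0.0538), while none of the 18 measured macrophage genes was called.

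The 2 chemokines called of 32 measured moved in opposite directions. Each direction held 3.12 percent of the list, against 2.25 percent of all genes higher and 2.37 percent lower. Cxcl1, which attracts neutrophils, was at 5.43, 5.47, 5.04 and 6.37 at E8.5 and at 6.78, 7.14, 7.74, 7.11 and 7.17 at E10.5, a change of 1.61 ± 0.34 (adjusted p = 0.00506). Cxcl12, the ligand of Cxcr4, was at 8.70, 9.36, 10.52 and 10.22 at E8.5 and at 8.29, 7.37, 8.02, 7.60 and 8.15 at E10.5. It fell by 1.81 on the log2 scale (SE 0.29, adjusted p = 0.000342), all 4 of its probes were called, and it was still lower without E8.5 replicate 3 (-1.54, adjusted p = 0.00424). Cxcl1 was also called without that mouse (1.43, adjusted p = 0.0373), but without both arrays it was not (1.45, adjusted p = 0.0633), which left Cxcl12 as the 1 chemokine called (-1.47, adjusted p = 0.012).

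Some ligands, receptors and inhibitors of the Wnt pathway were lower at E10.5. Of 32 measured Wnt genes 5 were lower and none was higher, with a median change of -0.13. The 5 were 15.6 percent of the list, against 2.37 percent of all genes. The count was 2 without E8.5 replicate 3 and 1, Wnt6, without both arrays. In these fits 1.01 and 0.528 percent of all genes were lower. Wnt6, a ligand, was at 7.58, 7.56, 9.28 and 9.59 at E8.5 and at 6.65, 6.74, 6.21, 6.49 and 6.64 at E10.5. The 2 highest E8.5 mice were replicates 3 and 4, and the change was -1.95 ± 0.38 (adjusted p = 0.00268) and -1.69 without replicate 3 (adjusted p = 0.024) and -1.68 without both arrays (adjusted p = 0.048). Wnt5a, a ligand made by uterine stroma, was at 9.24, 9.31, 9.81 and 10.37 at E8.5 and at 8.62, 8.24, 8.42, 8.01 and 8.68 at E10.5, a change of -1.29 ± 0.28 (adjusted p = 0.0056), and it was not past the threshold without both arrays (-1.15, adjusted p = 0.0739). The secreted inhibitor Sfrp1 fell by 1.54, the R-spondin Rspo3 by 0.95 and the receptor Fzd7 by 0.61 on the log2 scale, all with separate groups, and these 3 were not past the threshold without replicate 3 (adjusted p = 0.0589, 0.118 and 0.0979). Wnt4, known from decidualising stroma, did not pass (-1.54 ± 0.53, adjusted p = 0.095), and E10.5 replicate 4 was at 7.62 against 5.07 to 5.60 in the other E10.5 mice.

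In the list of TGF-beta, BMP and activin genes, with 31 measured, 1 was higher (Tgfb2) and 4 were lower, namely the ligand Bmp4, the inhibitory Smad gene Smad6 and the targets Id1 and Id3. These were 3.23 and 12.9 percent of the list, against 2.25 and 2.37 percent of all genes. Without E8.5 replicate 3, and also without both arrays, there were 1 higher and 1 lower gene. Id1 was at 9.53, 9.84, 10.26 and 9.91 at E8.5 and between 8.79 and 9.02 at E10.5. Its change was -0.99 ± 0.18 (adjusted p = 0.00102), and it was the 1 of the 4 still called without replicate 3 (-0.87, adjusted p = 0.0111). Id3 lay at 7.92, 8.21, 9.03 and 8.91 at E8.5 and at 7.16 to 7.54 at E10.5, a change of -1.16 ± 0.26 (adjusted p = 0.0072). Bmp4 fell by 0.70 and Smad6 by 0.95 on the log2 scale. The other probe of Smad6 was not called (-0.70, adjusted p = 0.119).

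In the insulin-like growth factor (IGF) axis 2 of 11 measured genes (18.2 percent, against 2.37 percent of all genes) were lower. Without E8.5 replicate 3 they were 3, with the binding protein gene Igfbp3 added (-1.31, adjusted p = 0.0202, against -0.59 and 0.504 with all mice), and without both arrays Igfbp4 and Igfbp3 were called. Igf1, the ligand, was at 11.28, 11.48, 11.28 and 11.76 at E8.5 and at 10.95, 10.26, 10.75, 10.34 and 10.88 at E10.5, with separate groups and a change of -0.81 ± 0.19 (adjusted p = 0.013) that was -0.87 without that mouse and not past the threshold without both arrays (-0.79, adjusted p = 0.075). Igfbp4, a binding protein that holds IGF back, was at 10.91, 10.98, 11.13 and 11.75 at E8.5 and at 9.74, 9.55, 10.07, 9.81 and 9.83 at E10.5. The groups were apart, and the change was -1.39 ± 0.26 (adjusted p = 0.00185), with both probes of the gene called.

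The largest decreases were spread over genes of several kinds. Of the 12 largest decreases with separate groups, 11 were still called without E8.5 replicate 3 and 10 without E10.5 replicate 4 as well. Stmn2, a microtubule-destabilising protein of neurons, was at 7.17, 7.23, 8.63 and 8.45 at E8.5 and at 5.86, 5.84, 5.65, 5.01 and 6.01 at E10.5. Its change was -2.20 ± 0.31 (4.58-fold lower, adjusted p = 5.99e-05) and -1.94 without replicate 3 (adjusted p = 0.000825). Capn6, a calpain without protease activity, was at 9.92, 10.16, 10.15 and 10.55 at E8.5 and at 8.58, 8.00, 8.47, 8.10 and 8.27 at E10.5. The mice of each group lay close together, and the change was -1.91 ± 0.39 with all mice and -1.93 without replicate 3. Aard was at 7.49 to 8.48 at E8.5 and at 4.91 to 6.70 at E10.5 (-2.01 ± 0.38). The carboxylesterase Ces1d (-1.76 ± 0.49) and the flavin monooxygenase Fmo1 (-1.72 ± 0.37) fell more without replicate 3, by 2.00 and 1.96 on the log2 scale, but Ces1d was not past the threshold without both arrays (adjusted p = 0.0952).

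**Figure D4:**
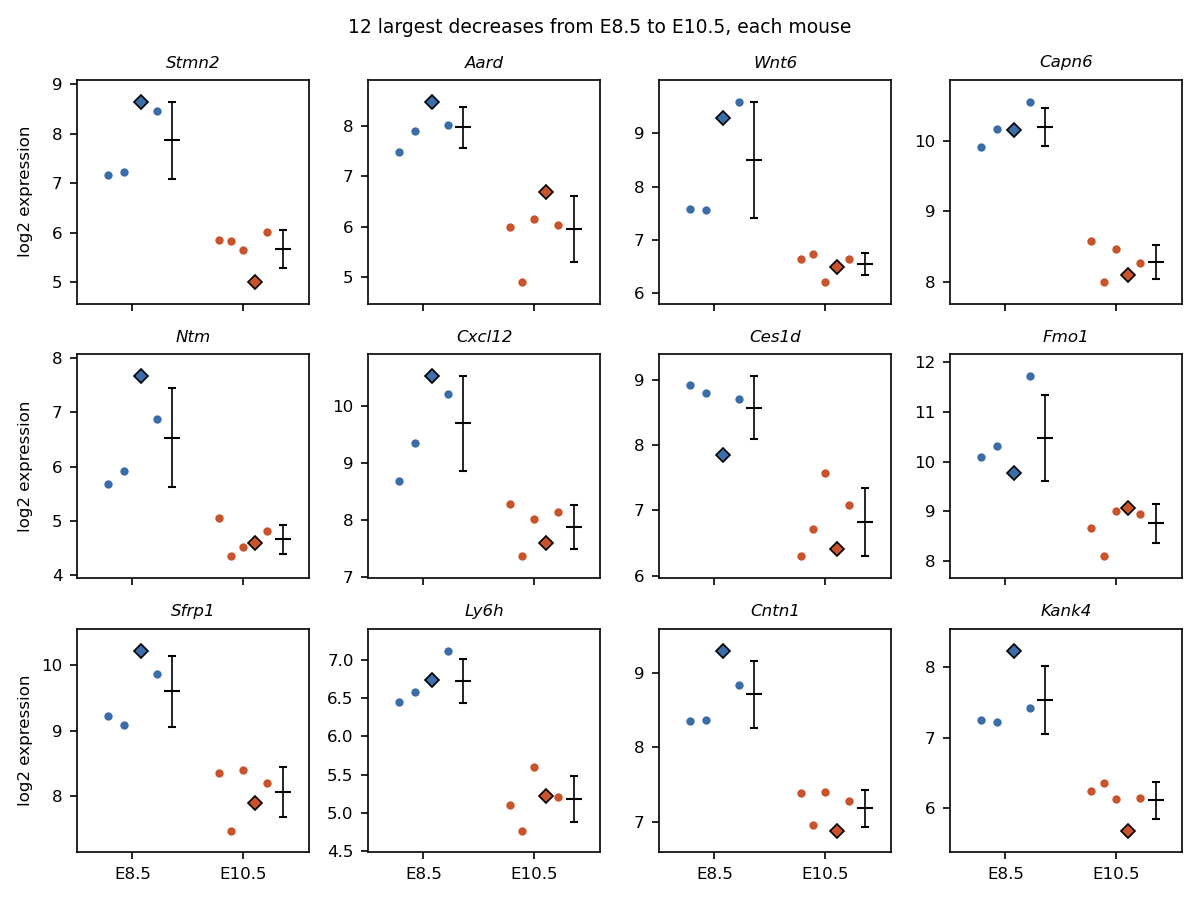
Log2 expression (y axis) of the 12 genes with the largest decrease among genes with separate groups in each E8.5 mouse (blue) and E10.5 mouse (orange), with mean and SD beside the points and E8.5 replicate 3 and E10.5 replicate 4 as outlined diamonds. All E10.5 mice lie below all E8.5 mice in each panel, as in Capn6 with 8.00 to 8.58 against 9.92 to 10.55.

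Several genes known from nerve fibres and synapses stood among the decreases. In a list drawn up for this reason after the values were seen, and so counted with no test, 16 of 49 measured genes were lower and 1 was higher, 10 and 0 without E8.5 replicate 3, and 8 and 0 without both arrays. The median change of the 49 was -0.18, and the 16 were 32.7 percent of them, against 2.37 percent of all genes. Cntn1, an adhesion molecule of axons, was at 8.35, 8.36, 9.30 and 8.84 at E8.5 and at 7.39, 6.95, 7.40, 6.88 and 7.28 at E10.5, a change of -1.53 ± 0.26 (adjusted p = 0.00055). Ntm, the adhesion molecule neurotrimin, was detected in all 4 E8.5 mice at 5.68, 5.91, 7.67 and 6.88 and in none at E10.5, where it was at least 2.84-fold lower (adjusted p = 0.000517). Galr2, a receptor of the peptide galanin, was at 6.96, 6.56, 6.74 and 5.99 at E8.5 and at 4.95 to 5.54 at E10.5, a change of -1.23 ± 0.18 (adjusted p = 8.52e-05).

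The choline acetyltransferase gene Chat and the vesicular acetylcholine transporter gene Slc18a3, which lie in 1 locus and serve acetylcholine release, were detected in all 4 E8.5 mice and in none at E10.5. They were at least 1.35-fold and 1.33-fold lower there (adjusted p = 0.0312 and 0.00269), and Slc18a3 alone was called without E8.5 replicate 3 (adjusted p = 0.0123). The tested probes of Ncam1 and Lgi4 were also undetected at E10.5 and read at least 1.51-fold and 1.63-fold lower there. The neurotrophin receptor gene Ntrk2 fell by 0.61 on the log2 scale. Only Lgi4 of these 3 was past the threshold without that mouse (adjusted p = 0.00672). The other probe of Ncam1, detected on 6 of the 9 arrays, had a change of -0.03, so its 2 probes disagreed. Ret, a receptor of glial cell derived ligands, was the 1 member that was higher, at least 1.15-fold and from below background. Several genes of the list are also made by cells other than neurons.

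Matrix and muscle lists held few calls, though their shares were above that of all genes. Of 26 stroma and matrix genes 2 were lower (7.69 percent, against 2.37 percent of all genes), with a median change of -0.33. They were the collagen gene Col14a1 and the microfibril gene Mfap2, both still called without E8.5 replicate 3. Of the 26 changes 19 were negative and 7 positive. Without both arrays Mfap2 alone was called, with Col14a1 at -0.94 (adjusted p = 0.0792). Mfap2 was at 9.68, 9.81, 10.06 and 9.75 at E8.5 and at 8.61, 8.59, 9.08, 8.35 and 8.81 at E10.5, a change of -1.14 ± 0.17 (adjusted p = 0.000141), with all 3 probes called. The list's mean was 10.28 to 10.46 at E8.5 and 9.90 to 10.26 at E10.5, lowest in E10.5 replicate 4. Mdk, the growth factor midkine, was at 11.80, 12.20, 11.21 and 12.28 at E8.5 and at 10.29, 9.95, 11.06, 10.30 and 11.06 at E10.5, a change of -1.34 ± 0.29. Mmp2, a gelatinase of stroma, fell by 0.55 on the log2 scale (adjusted p = 0.024) and was not past the threshold without both arrays (adjusted p = 0.0952).

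Of 19 smooth muscle genes 1 was lower (5.26 percent, against 2.37 percent of all genes), namely Tpm2. This call rested on a dim probe at 4.86 to 6.17, while the brightest probe of Tpm2 had a change of -0.10 (adjusted p = 0.824). Of the 19 changes 14 were negative and 5 positive. Of 26 measured genes associated with contraction 3 were lower and 1 higher, 11.5 and 3.85 percent against 2.37 and 2.25 percent of all genes. Those lower were Ptger3, a prostaglandin E receptor, and the potassium channels Kcnh2 and Kcnj8, at -1.07 ± 0.25, -1.06 ± 0.27 and -0.77 ± 0.23. Ptger3 was at 6.84, 6.44, 6.57 and 6.07 at E8.5 and at 5.48, 4.75, 5.72, 5.65 and 5.49 at E10.5, and it was the 1 of the 3 past the threshold without E8.5 replicate 3 (adjusted p = 0.0476), and without both arrays it was not (adjusted p = 0.0642). The gene that was higher was Gjb2, connexin 26, which is a junction protein of epithelium as well. It was at 8.96, 8.78, 4.30 and 6.96 at E8.5 and at 9.35 to 11.14 at E10.5 (3.01 ± 0.86, adjusted p = 0.0388), and was not called without replicate 3 (adjusted p = 0.213). Its other detected probes were not called with all mice (2.05 and 1.26, adjusted p = 0.0656 and 0.0784). Gja1, connexin 43 of muscle and stroma, lay between 12.76 and 13.84 in all 9 mice (-0.36 ± 0.23, adjusted p = 0.447).

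Of the decidual list 1 of 17 genes (5.88 percent, against 2.25 percent of all genes) was higher, the protease Htra3. It was at 10.33, 9.81, 8.87 and 10.22 at E8.5 and at 10.95, 11.21, 10.87, 12.99 and 11.15 at E10.5. E10.5 replicate 4 was the highest, and the change was 1.63 ± 0.33 with all mice and 0.93 without both arrays that stood apart, still past the threshold (adjusted p = 0.0484). In the red cell list the embryonic globin gene Hbb-y was the 1 called of 9 (11.1 percent), at 7.50, 7.65, 4.49 and 4.57 at E8.5 and at 9.62, 8.69, 6.25, 12.15 and 7.42 at E10.5. The groups overlapped, and it was not called without E8.5 replicate 3 (adjusted p = 0.157). None of 18 placental, 16 yolk sac or 11 gland product genes was called. The gland product Prap1 was at 14.38, 14.18, 5.18 and 14.41 at E8.5 and at 14.15 to 14.43 at E10.5, so that its difference of 2.27 (adjusted p = 0.335) became -0.01 without replicate 3.

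Cell division, translation and energy lists held few calls. None of 27 mitosis genes, 59 genes of oxidative phosphorylation, 24 of the unfolded protein response or 21 of antigen presentation was called in either direction, and 1 of 30 DNA replication genes (Pola2) and 1 of 56 cytosolic ribosomal protein genes (Rpl22) were lower. The medians of these lists lay between -0.17 for mitosis and 0.10 for the unfolded protein response. Changes were negative in 22 mitosis genes and 24 DNA replication genes, and positive in 5 and 6. For oxidative phosphorylation 37 were negative and 22 positive. E8.5 replicate 3 had the highest mean of the 9 mice for mitosis (8.11) and for DNA replication (8.25). Pola2 and Rpl22 were not called without E8.5 replicate 3. Of 238 genes whose symbols begin with Zfp, most of them zinc finger proteins, 10 were lower and none was higher, 4.2 percent, with a median of -0.13, and 4 and 3 were lower without E8.5 replicate 3 and without both arrays. Of all genes tested 2.37 percent were lower. Of 27 apoptosis genes 2 were higher, Bid and Bcl2l1, which act for and against cell death, and 1 was lower, Diablo. These were 7.41 and 3.7 percent of the list, against 2.25 and 2.37 percent of all genes. Bcl2l1 and Diablo were not called without E8.5 replicate 3. Bid was at 6.76, 7.00, 6.85 and 7.07 at E8.5 and at 8.25, 8.13, 7.93, 7.79 and 8.01 at E10.5, a change of 1.11 ± 0.18 (adjusted p = 0.00026).

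Removing E8.5 replicate 3 also brought out calls that were not made with it, 2 of higher and 15 of lower genes. One was Nppa, the precursor of atrial natriuretic peptide, at 9.74, 9.70, 7.13 and 9.22 at E8.5 and at 7.75, 7.59, 8.45, 7.50 and 9.13 at E10.5. Its difference was -0.86 with all mice (adjusted p = 0.195) and -1.47 without replicate 3 (adjusted p = 0.00435), with E10.5 replicate 5 close to the remaining E8.5 mice.

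The levels of the leading genes at the other time points placed this step in the course of gestation, as a description. The fit holds all 32 samples, and neighbouring steps share samples with this one. Havcr1 was at 4.75 in the non-pregnant (NP) uterus and 4.92 at E6.5, at 5.70 and 9.01 at E8.5 and E10.5, and at 10.72, 10.70 and 9.63 at E12.5, E15.5 and E17.5. Ido1 was highest at E12.5, at 9.32, and was down to 6.53 at E17.5, whereas Cuzd1 went from 6.17 at E8.5 through 9.41 at E10.5 to 14.32 at E15.5. Klk1 was already at 9.20 at E6.5 and lay at 12.66 at E12.5. Its E8.5 mean of 8.62 holds E8.5 replicate 3 at background, so no fall from E6.5 is read from it. Of the genes that fell, Stmn2, Wnt6 and Capn6 had their highest mean at E8.5. Stmn2 started from 5.57 in the NP uterus and 6.61 at E6.5, reached 7.87 and was back at 5.67 at E10.5. Capn6 went from 7.02 and 9.16 to 10.20 and then to 8.28, and Wnt6 was at 5.59 in the NP uterus, 7.89 at E6.5 and 6.55 at E10.5. Cxcl12 and Igfbp4 were higher still in the NP uterus, at 10.45 and 11.88, and stayed between 7.70 and 8.02 and between 9.97 and 10.16 from E12.5 on.

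**Figure D5:**
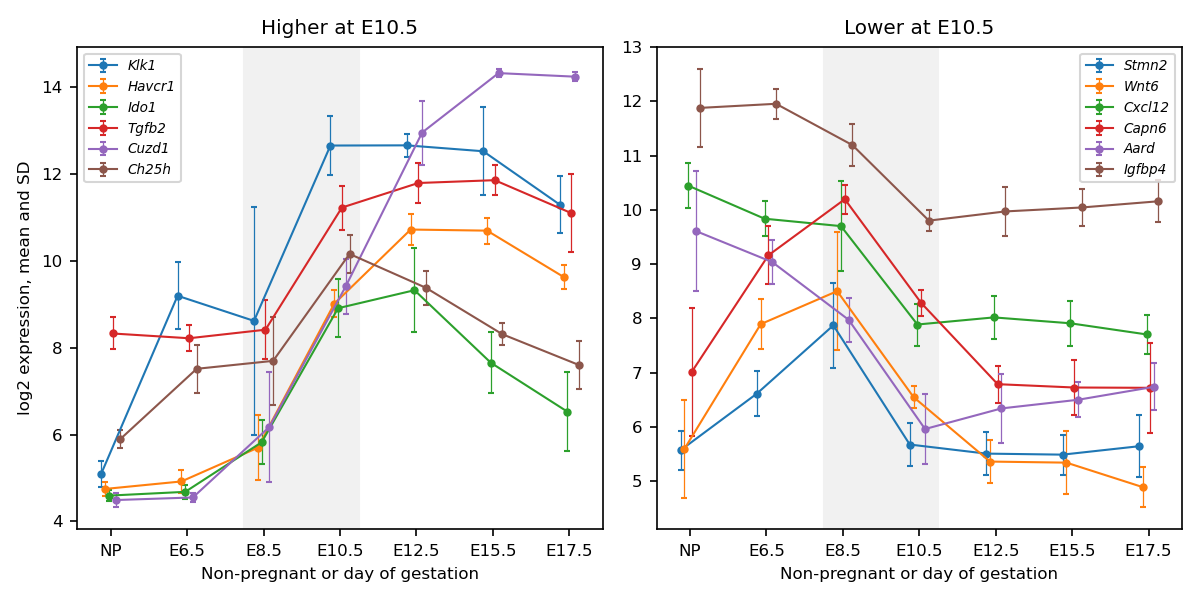
Mean log2 expression with SD (y axis) in the non-pregnant uterus (NP) and at 6 days of gestation for 6 genes higher (left) and 6 genes lower (right) at E10.5 than at E8.5, with both time points shaded. Havcr1 goes from 5.70 to 9.01 and Capn6 from 10.20 to 8.28 within the shaded step.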

How the data were processed

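For every array the authors deposited background-uncorrected intensities summarised by probe, beside a detection p-value for each, and log2 values made from them with limma by normexp background correction with controls, quantile normalisation and log2. The authors left out 5528 of 25697 probes not detected on any of 32 arrays. The deposited log2 values were used as they are. Of 20169 probes 18903 carried 1 gene symbol in the platform annotation and 1266 none. Per gene the probe with the highest SD was taken, which gave 13439 genes. E10.5 was set against E8.5 with limma 3.58.1 in R 4.3.3, in 1 fit of 7 group means over all 32 arrays, 2-sided, with Benjamini-Hochberg adjustment. The script was tested on simulated data. A gene undetected on every array of a group has a bound, computed from the lowest signal among detected probes, which lay between 4.93 and 5.10 on the 9 arrays. The replicates are separate mice by the labels and methods, and no 2 arrays held the same values (highest correlation 0.99). The number of arrays limits the precision. Genes were named by rule: the 12 largest called increases and decreases with separate groups and detection throughout the higher group, up to 4 genes per list with the smallest adjusted p, list members at the largest change, and genes named in the study's text. Other genes in the text, such as Cldn10, Kcne2, Car4, Trpv6, Csf1, Mdk, Nppa, Chat and further members of the lists, were chosen after their values were seen. The comparison, its members and the gene lists were chosen with earlier results of these data known. Promoter sequences are RefSeq's, aligned with Biopython 1.88. Alternatives covered the source of the values, background, normalisation, detection filters, the probe taken, the model and the mice left out.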

Additional observations from a re-analysis of the deposited data

Results flagged for a closer look

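In each group of 4 or 5 mice, 136 named genes and 17 cell type lists were searched for a single mouse far from the others, by the gap to its nearest neighbour over the whole range (Dixon's 95% critical values), in 306 groups of values. Chance flags about 1 in 20 groups, and 16 were found, so their number is no finding. E8.5 replicate 3 was far below the other 3 mice in Guca2b (4.29), Hsd11b1 (9.22), Prap1 (5.18) and the mean of the gland product list (5.07). E10.5 replicate 4 was far above the other 4 in Hsd17b2 (7.88), Wnt4 (7.62), Htra3 (12.99) and the means of the lists for decidua (9.09), placenta (8.56) and yolk sac (5.83), and far below them in the mean of the stroma list (9.90). E8.5 replicate 4 was the lowest in the mean of the stroma list (10.28), with the others at 10.44 to 10.46. The remaining values apart were Klk1b22 in E8.5 replicate 3 (4.75, below background), Ap1m2 in E8.5 replicate 2 (5.91) and in E10.5 replicate 1 (5.43) and Ptger3 in E10.5 replicate 2 (4.75).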

How the results depend on the processing

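Of 23 alternatives 22 follow single genes, the added 2-fold limit being applied to counts only. No gene called in the report changed direction in these 22, and 40 of the 117 called genes among the 136 followed were past the threshold in all 22. The counts of higher and lower genes were 303 and 319. They came to 490 and 601 with array weights and to 178 and 55 when a change of at least 2-fold was also asked. Median scaling left 196 lower genes and the other normalisations and filters kept both counts within 1.5 times. A fit on only the 9 samples gave 264 higher and 343 lower genes, but only 190 and 217 of them were among the calls above. Of the 136 followed genes 42 lost their call in it, among them Krt8, Akr1c18, Lrat, Car4, Kcne2 and Hsd11b1. Leaving out 1 array at a time gave 140 to 274 higher and 136 to 329 lower genes, and without E8.5 replicate 3 and E10.5 replicate 4 together there were 100 and 71. With the replicate number as a block 445 genes were higher and 554 lower, but same-numbered mice of both groups share only a number: the correlation of their deviations ran from -0.1154 to 0.2177. Sign changes were found only in genes that were not called. Without the 2 arrays together they were Hsd11b2 (-0.0861), Pgr (-0.0758), Esr1 (0.0893), Klk1b1 (-0.0079) and Klk1b22 (0.0723), and with array weights Esr1 (0.0552) and Klk1b22 (0.0057). Leaving out 1 array at a time gave ranges across 0 for Pgr (-0.0542 to 0.18), Esr1 (-0.28 to 0.15), Klk1b1 (-0.0377 to 0.12), Klk1b22 (-0.0524 to 0.0731), Scnn1a (-0.21 to 0.0489), Prap1 (-0.0111 to 3.06) and Hsd11b2 (-0.24 to 0.64). The cause of these shifts was not tested. The number of mice limits what can be called, and genes near background have a compressed change. The detection filter could not be dropped, since the annotation covers only probes that passed it, and no beadchip is named, so neither alternative was run.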
